A study of Mus musculus with 4 samples.

Results

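The nuclear-encoded subunits of the respiratory chain were taken by name from the protein-coding genes of the authors' deposited table. They comprised the Nduf genes of complex I, the Sdh genes of complex II, the Uqcr genes of complex III, the Cox4 to Cox8 genes of complex IV and the Atp5 genes of ATP synthase, complex V. That table has 18378 rows, whereas 49585 genes were counted. The rule found 80 genes in it, namely 37 in complex I, 4 in complex II, 8 in complex III, 14 in complex IV and 17 in complex V. The rule used gene names and no measured value, but it could reach only genes in that table. The isoform genes Cox4i2, Cox6b2, Cox7b2 and Cox8c, with at most 5 fragments in any library, were not among the 80. Of the 80 genes, 79 had enough fragments to be tested, and Ndufa4l2, a hypoxia-responsive relative of Ndufa4, had not.

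The study compared C2C12 cells, a mouse myoblast line (strain C3H) that forms myotubes in low serum, after retroviral overexpression of C/EBPβ with the same line carrying the empty pLXSN retrovirus. C/EBPβ is a basic leucine zipper transcription factor. Both groups carried a retroviral vector and had been selected for 7 days in G418 at 1200 µg/ml. They were drug-resistant pools and not single clones, were left to proliferate for 2 days, and spent 2 days in 2% horse serum from 90% confluency after growth in 10% fetal bovine serum. Each group had 2 libraries of stranded mRNA. Nothing in the labels says that the libraries came from separate transductions, and the spread that the p-values measure may therefore be technical.

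Complexes I to IV pass electrons from NADH and succinate to oxygen, complexes I, III and IV pump protons across the inner mitochondrial membrane, and complex V uses the gradient to make ATP. Most subunits are encoded in the nucleus, and a few core subunits of complexes I, III, IV and V are encoded in mitochondrial DNA. In complex IV several nuclear subunits exist as a ubiquitous isoform and as an isoform typical of heart and skeletal muscle, which replaces it as muscle matures.

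The libraries held 50493417 and 36461091 assigned fragments in C/EBPβ-overexpressing cells, against 45448661 and 51537847 in empty-vector cells. Cebpb itself was counted at 502 and 442 CPM (counts scaled to a common library size) in C/EBPβ-overexpressing cells, against 42.7 and 41.3 CPM in empty-vector cells, which was 11.2-fold. The counts do not separate vector-derived from endogenous Cebpb. All 12 of 12 muscle markers (among them Myog, Acta1 and Ckm) were detected in every library, and all 12 were lower in C/EBPβ-overexpressing cells, with a median log2 fold change of -1.56. Their summed level was 6661 and 11754 CPM in C/EBPβ-overexpressing cells, against 27451 and 31104 CPM in empty-vector cells. Of 5 cycling-cell markers 4 fell, with summed levels of 271 and 250 CPM in C/EBPβ-overexpressing cells, against 474 and 619 CPM in empty-vector cells. Of 6 fibro-adipogenic progenitor markers 3 rose and 1 fell. Of 6 adipocyte markers the 4 that could be tested rose, and the list summed to 1512 and 1065 CPM in C/EBPβ-overexpressing cells, against 25.6 and 25.4 CPM in empty-vector cells. Most of that sum was Lpl, whereas Adipoq and Cidec were near 0 in both groups. Of 5 brown adipocyte markers Ucp1, Cidea, Prdm16 and Elovl3 were at or near 0 in all libraries. The remaining one, the deiodinase Dio2, had 105.6 and 54.4 CPM in C/EBPβ-overexpressing cells, against 35.9 and 29.7 CPM in empty-vector cells (log2 fold change 1.29, edgeR adjusted p = 0.055). Of 5 macrophage markers 2 of the 3 tested rose, Lyz2 by 7.98 and Csf1r by 1.21 on the log2 scale, while Ptprc and Adgre1 were at or near 0. The macrophage list summed to 32.6 and 30.1 CPM in C/EBPβ-overexpressing cells, against 3.01 and 2.61 CPM in empty-vector cells. All 4 endothelial markers stayed under 1 CPM, and the 1 tested, Tek, was lower in C/EBPβ-overexpressing cells. In bulk RNA such as this, fewer cells of a type and less RNA per cell cannot be told apart.

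Most respiratory chain genes had modestly lower values in C/EBPβ-overexpressing cells. Of the 79 genes tested, 29 fell and 1 rose at an adjusted p below 0.05 (edgeR's quasi-likelihood test, Benjamini-Hochberg adjustment over 15886 genes). Among all genes tested, 20.9% were lower and 22.3% were higher by the same rule. The share of subunit genes called lower, 36.7%, stood above that of genes in general. The subunit genes were also more abundant. Their median FPKM (defined below) was 49.1 in C/EBPβ-overexpressing and 56.6 in empty-vector cells, against 4.74 and 4.46 over all genes tested. The part of abundance in the share called was not tested. The log2 fold change was negative for 69 of 79 subunit genes, against 48.8% of all genes, and its median was -0.20 against 0.01 over all genes. In 56 of the 79 both C/EBPβ libraries lay below both empty-vector libraries, whereas 36.7% of all genes did so. In 4 of 79 both C/EBPβ libraries lay above, against 38.4% of all genes.

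Together the 80 genes took 0.947% and 0.968% of assigned fragments in C/EBPβ-overexpressing cells, against 1.08% and 1.15% in empty-vector cells, so the groups did not overlap. Apart from the 3 muscle-type isoforms of complex IV, the log2 fold changes ran from -0.56 to 0.43, with a median standard error of 0.091. Only Cox8b and Cox7a1 combined a call with a change of more than 1.5-fold. The 2 empty-vector libraries differed among themselves in these genes: replicate 2 lay above replicate 1 in 68 of 79, by a median of 0.15 on the log2 scale, where the median over all genes was -0.01. Without empty-vector replicate 2 the share of subunit genes called lower no longer stood above that of genes in general. The median log2 fold change of the subunit genes was then -0.13. Without empty-vector replicate 1 their share did stand above that of genes in general, and the median was -0.27. Each of these fits left 1 empty-vector library. The muscle, cycling-cell, adipocyte, fibro-adipogenic and macrophage markers moved with the groups as well, and their part in the subunit values was not tested.

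**Figure D1:**
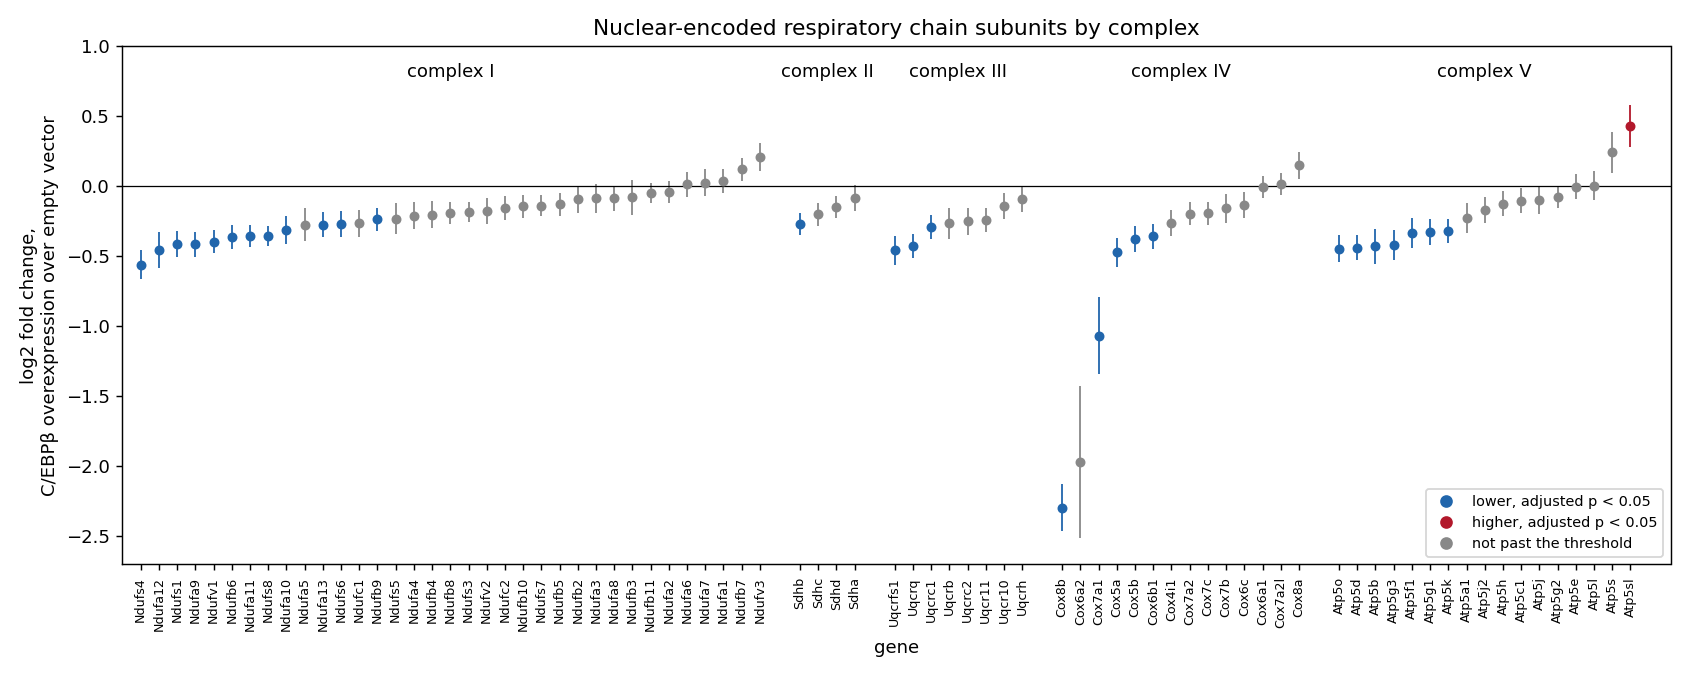
Log2 fold change of C/EBPβ overexpression over empty vector (y axis) for the subunit genes tested except 1 that is not reported (x axis), grouped by complex and ordered by size, with bars of 1 standard error. Most genes of each complex lie between -0.56 and 0, and Cox8b, Cox6a2 and Cox7a1 lie far below the others.

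The 5 complexes had similar medians. Median log2 fold changes were -0.20 for complex I (13 of 36 tested genes fell), -0.17 for complex II (1 of 4), -0.26 for complex III (3 of 8), -0.23 for complex IV (5 of 14) and -0.17 for complex V (7 of 17). Of all genes tested, 20.9% were called lower, and the share in complex II, 25%, was near that. Without the 3 muscle-type isoforms, complex IV had a median of -0.19 (3 of 11 fell, 27.3%). Complex V had -0.23 (7 of 15) without Atp5s and Atp5sl, which are not subunits of ATP synthase. All 4 genes of complex II and 7 of 8 genes of complex III had both C/EBPβ libraries below both empty-vector libraries. The same held for 25 of 36 genes in complex I, 10 of 14 in complex IV and 10 of 17 in complex V. Over all genes tested, it held for 36.7%. By library, the median level over all 79 genes, relative to the mean of the empty-vector libraries on the log2 scale, was -0.23 and -0.19 in C/EBPβ-overexpressing cells, against -0.08 and 0.07 in empty-vector cells.

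**Figure D2:**
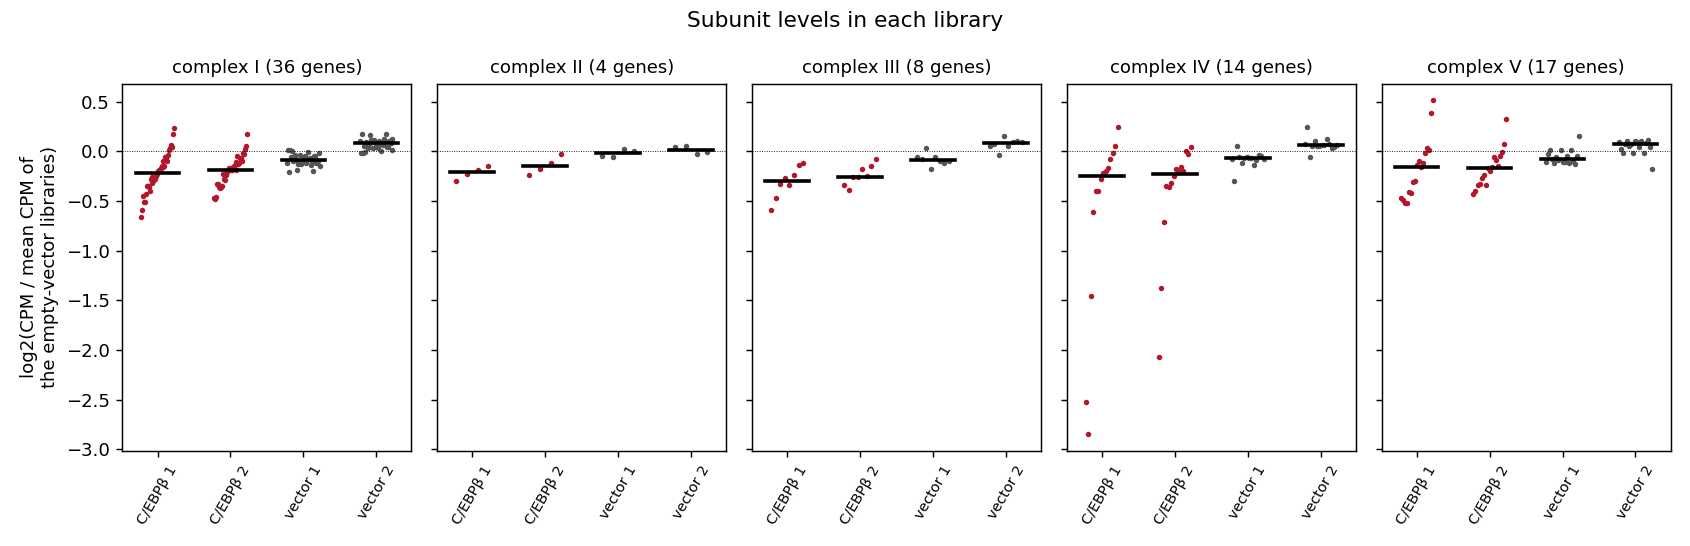
Level of each subunit gene in each library as log2 of its CPM over the mean CPM of the empty-vector libraries (y axis), in 5 panels by complex; points are genes and horizontal lines are medians. In complexes I to IV the medians of both C/EBPβ libraries lie below those of both empty-vector libraries, and so they do in complex V, where empty-vector replicate 1 is nearest at -0.07.

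Complex I, the NADH dehydrogenase, has a peripheral arm that carries the flavin and the iron-sulphur clusters and a membrane arm that pumps protons. Levels are given below as fragments per kilobase of the deposited exon length, scaled to library size as CPM is (FPKM). Ndufv1, a core subunit that binds NADH and the flavin, measured 47.8 and 50.2 FPKM in C/EBPβ-overexpressing cells, against 64.6 and 64.4 FPKM in empty-vector cells, a log2 fold change of -0.40 (SE 0.08, edgeR adjusted p = 0.00522). The libraries of each group lay close together. Ndufs1, the large iron-sulphur subunit at the tip of the arm, fell by 0.42 and Ndufs8, which holds iron-sulphur clusters nearer the membrane, by 0.36 on the log2 scale. The groups did not overlap in Ndufs3, Ndufs7 or Ndufv2, further core subunits, whose log2 fold changes of -0.19, -0.14 and -0.18 did not pass the threshold. Of the 50-base windows of Ndufs3, 16.1% also occur in other annotated genes.

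Among the 28 accessory subunits of complex I, 9 fell (32.1%, against 20.9% of all genes), and the median log2 fold change was -0.17. The lowest was Ndufs4, which stabilises the NADH-oxidising module and is mutated in human Leigh syndrome. It stood at 34.1 and 39.1 FPKM in C/EBPβ-overexpressing cells, against 49.95 and 58.0 FPKM in empty-vector cells. The groups did not overlap, although the libraries of each group differed, and the log2 fold change was -0.56 (SE 0.10, adjusted p = 0.00337). Ndufa12, another accessory subunit of the peripheral arm, had a log2 fold change of -0.45 (adjusted p = 0.0247), but 17.7% of its 50-base windows also occur in other annotated genes, which makes its value uncertain. Ndufb9, a membrane-arm subunit, was the most abundant complex I transcript by FPKM. It averaged 219 ± 6.87 FPKM in C/EBPβ-overexpressing cells and 258 ± 9.17 FPKM in empty-vector cells (SD, n = 2 each), with an adjusted p of 0.0479. Of its windows, 15.6% also occur in other annotated genes. Without empty-vector replicate 2 the adjusted p was 0.15 for Ndufa12 and 0.228 for Ndufb9, and Ndufb9 also lost its call without empty-vector replicate 1 (0.0935), without C/EBPβ replicate 1 (0.165) and with library sizes alone (0.0932). At the other end stood Ndufv3, an accessory subunit of the flavoprotein fragment, with a log2 fold change of 0.20 (adjusted p = 0.133); without empty-vector replicate 2 it was called higher (0.35, adjusted p = 0.0386). Ndufb7 and Ndufa1, both of the membrane arm, had 0.12 and 0.03. Ndufa4, named as a complex I subunit but later found in complex IV, had -0.21 (adjusted p = 0.113). Its relative Ndufa4l2 was counted at 10 and 10 fragments in C/EBPβ-overexpressing cells, against 5 and 4 in empty-vector cells, too few for the test.

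Complex II, succinate dehydrogenase, also belongs to the TCA cycle and has no mitochondrially encoded subunit. Its iron-sulphur subunit Sdhb measured 34.6 and 35.9 FPKM in C/EBPβ-overexpressing cells, against 41.2 and 43.7 FPKM in empty-vector cells. The libraries of each group lay close together, and the log2 fold change was -0.27 (SE 0.08, adjusted p = 0.0233). That call was lost without empty-vector replicate 2 (adjusted p = 0.137) and without C/EBPβ replicate 1 (adjusted p = 0.0942). The membrane anchors Sdhc and Sdhd had log2 fold changes of -0.20 (adjusted p = 0.0874) and -0.15 (adjusted p = 0.165). The flavoprotein Sdha, which oxidises succinate, had -0.09 (adjusted p = 0.477), with 71.1 and 77.4 FPKM in C/EBPβ-overexpressing cells against 79.2 and 78.7 FPKM in empty-vector cells.

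Complex III, the cytochrome bc1 complex, carries electrons from ubiquinol to cytochrome c. Its Rieske iron-sulphur protein Uqcrfs1 stood at 75.1 and 88.9 FPKM in C/EBPβ-overexpressing cells, against 108 and 117 FPKM in empty-vector cells. The C/EBPβ libraries were the more spread of the 2 groups but remained below, and its log2 fold change was -0.46 (SE 0.10, adjusted p = 0.00788). Uqcrq, a small subunit next to cytochrome b, fell by 0.43 (adjusted p = 0.00514) and the core protein Uqcrc1 by 0.29 (adjusted p = 0.0233) on the log2 scale. Its partner Uqcrc2 had -0.25 (adjusted p = 0.0594). Without empty-vector replicate 2 the adjusted p was 0.0581 for Uqcrfs1 and 0.0732 for Uqcrc1, and Uqcrc1 was also not called without empty-vector replicate 1 (0.116) or without C/EBPβ replicate 1 (0.072). The hinge protein Uqcrh had the smallest change of the complex, -0.09, and Uqcr10 had -0.14. Uqcr11, the most abundant of the complex by FPKM, had -0.24 (adjusted p = 0.0546).

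Complex IV, cytochrome c oxidase, held the largest changes, and they lay in its muscle-type isoforms. Cox8b (ENSMUSG00000025488, GRCm38 chr7:140898945-140900446, minus strand) is the muscle-type form of the small subunit VIII. It stood at 7.82 and 10.7 FPKM in C/EBPβ-overexpressing cells, against 42.6 and 47.4 FPKM in empty-vector cells. The groups were far apart, and Cox8b was 4.91-fold lower (log2 fold change -2.29, SE 0.17, adjusted p = 4.76e-05, edgeR). Cox7a1 (ENSMUSG00000074218, chr7:30184144-30186078, plus strand), the muscle-type subunit VIIa, was scarce. It had 45 and 53 fragments, or 1.61 and 2.71 FPKM, in C/EBPβ-overexpressing cells, against 110 and 115 fragments, or 4.61 and 4.25 FPKM, in empty-vector cells. It was 2.09-fold lower (log2 fold change -1.07, SE 0.28, adjusted p = 0.0157). That call was lost without C/EBPβ replicate 1 (adjusted p = 0.0545), without empty-vector replicate 1 (adjusted p = 0.0676) and without empty-vector replicate 2 (adjusted p = 0.0626).

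Cox6a2 (ENSMUSG00000030785, chr7:128205435-128206387, minus strand), the muscle-type subunit VIa, had 5.01 and 13.8 FPKM in C/EBPβ-overexpressing cells, against 29.3 and 42.7 FPKM in empty-vector cells. Both C/EBPβ libraries lay below both empty-vector libraries, but replicate 2 stood above replicate 1 by 1.47 on the log2 scale. The log2 fold change was -1.97 (SE 0.54, a 3.91-fold difference) and the adjusted p, 0.0519, narrowly missed the threshold. It passed with DESeq2 (adjusted p = 0.0234), limma-voom (0.00308), library sizes alone (0.0395), a filter at a mean of 1 CPM (0.0198) and the replicate number as a block (0.00705). It did not pass with median-ratio size factors (adjusted p = 0.0517) or without a count filter (0.286), nor without either empty-vector library. Leaving out C/EBPβ replicate 2 gave a log2 fold change of -2.86 and leaving out C/EBPβ replicate 1 gave -1.38. Without empty-vector replicate 1 it was -2.21, and without empty-vector replicate 2 it was -1.66. Each of these fits left 1 library in a group, and so no spread within that group. In all 3 muscle-type isoforms C/EBPβ replicate 2 stood above replicate 1, as it did in all 12 muscle markers; the part of muscle marker level in these isoform values was not tested.

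The ubiquitous counterparts were more abundant and were not called. Cox8a stood at 244 and 213 FPKM in C/EBPβ-overexpressing cells, against 196 and 216 FPKM in empty-vector cells, with overlapping groups (log2 fold change 0.15, SE 0.10, adjusted p = 0.252). Cox6a1 was at 205 and 207 FPKM in C/EBPβ-overexpressing cells, against 202 and 211 FPKM in empty-vector cells, again with overlap (log2 fold change -0.01, SE 0.08, adjusted p = 0.962). Cox7a2 had 98.4 and 100.9 FPKM in C/EBPβ-overexpressing cells, against 109 and 119 FPKM in empty-vector cells, without overlap (log2 fold change -0.20, SE 0.08, adjusted p = 0.0849). None of the 3 passed the edgeR test, DESeq2 or limma-voom, and 1 of them, Cox7a2, had an unadjusted p below 0.05. With the replicate number as a block Cox7a2 was called lower (adjusted p = 0.045).

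Set against their counterparts, the muscle-type isoforms were a minor fraction in both groups. Of the summed FPKM of Cox8a and Cox8b, Cox8b made up 3.11% and 4.79% in C/EBPβ-overexpressing cells, against 17.8% and 18.0% in empty-vector cells. Cox6a2 made up 2.39% and 6.28% of its pair in C/EBPβ-overexpressing cells, against 12.7% and 16.8% in empty-vector cells. Cox7a1 made up 1.61% and 2.61% of its pair in C/EBPβ-overexpressing cells, against 4.06% and 3.44% in empty-vector cells. The groups did not overlap in any of the 3 shares, and the exact 2-sided permutation p was 0.33 each time, the smallest that 2 libraries against 2 allow.

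**Figure D3:**
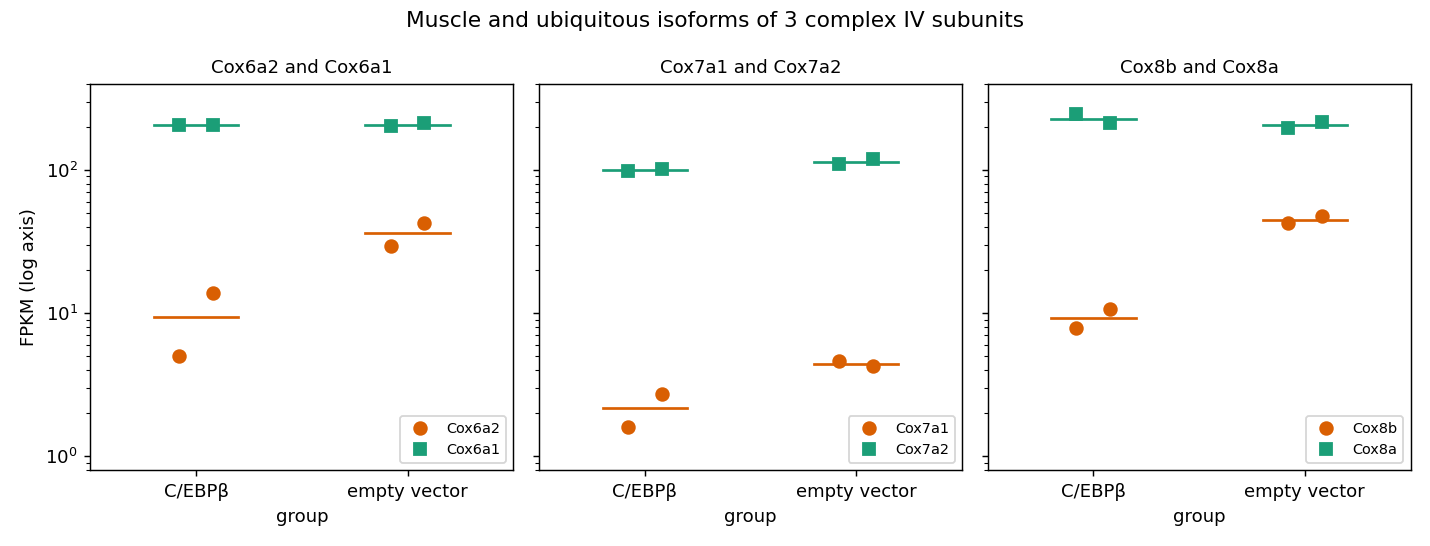
FPKM on a log axis (y axis) of the muscle-type isoform (circles) and the ubiquitous isoform (squares) of 3 complex IV subunits in C/EBPβ-overexpressing and empty-vector cells (x axis); points are libraries and lines are means. Each muscle-type isoform is lower in both C/EBPβ libraries, while the ubiquitous isoforms lie between 98.4 and 244 FPKM in all libraries.

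Other isoform genes of complex IV were close to absent. Cox4i2, the form of subunit IV typical of lung, had 5 and 1 fragments in C/EBPβ-overexpressing cells, against 1 and 0 in empty-vector cells. Cox6b2, a testis form, had 0 and 1 fragments in C/EBPβ-overexpressing cells, against 2 and 1 in empty-vector cells. Neither is among the 80 genes. Their ubiquitous forms were abundant. Cox6b1 stood at 191 and 202 FPKM in C/EBPβ-overexpressing cells, against 241 and 263 FPKM in empty-vector cells, and fell by 0.36 on the log2 scale (SE 0.09, adjusted p = 0.0117). Cox4i1, the largest nuclear-encoded subunit, had 195 and 199.6 FPKM in C/EBPβ-overexpressing cells, against 228 and 245 FPKM in empty-vector cells. Its log2 fold change was -0.26 and its edgeR adjusted p was 0.0517. Cox4i1 was called lower with DESeq2 (adjusted p = 0.0189), limma-voom (0.0438), and edgeR with median-ratio size factors (0.0496) or without a count filter (0.0314). By edgeR it was not called with library sizes alone (0.0883) or a filter at a mean of 1 CPM (0.0516). The matrix-side subunits Cox5a and Cox5b fell by 0.47 (adjusted p = 0.00752) and 0.38 (adjusted p = 0.0114); Cox5b shares 11.9% of its windows with other genes. The adjusted p without empty-vector replicate 2 was 0.055 for Cox5a, 0.085 for Cox5b and 0.0916 for Cox6b1. Cox7a2l, which takes part in joining complexes III and IV into supercomplexes, had a log2 fold change of 0.02.

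The promoters of 5 isoform genes are shown, among them both genes of the Cox8 pair and of the Cox7a pair, whose muscle-type members were called lower. They cover 250 bases before to 50 bases after the annotated start, from RefSeq on GRCm38.p6, and are written 5′ to 3′ on the gene's strand. Capitals mark matches, on either strand, to 7 searched motifs: GCGCA, any base and GCGC in a row (NRF1), CCGGAAG (ETS factors such as GABP), AAGGTCA (estrogen-related receptors), AAGATGGCG (YY1), TTGCNNAA (C/EBP), CTA, NNNN and TAG in a row (MEF2) and CAGCTG (an E-box of the kind bound by myogenic factors). The windows are chr7:140900397-140900696 for Cox8b (minus strand), chr7:30183921-30184220 for Cox7a1 (plus strand), chr9:79759804-79760103 for Cox7a2 (minus strand), chr19:7217567-7217866 for Cox8a (minus strand) and chr5:115348909-115349208 for Cox6a1 (minus strand).
Cox8b: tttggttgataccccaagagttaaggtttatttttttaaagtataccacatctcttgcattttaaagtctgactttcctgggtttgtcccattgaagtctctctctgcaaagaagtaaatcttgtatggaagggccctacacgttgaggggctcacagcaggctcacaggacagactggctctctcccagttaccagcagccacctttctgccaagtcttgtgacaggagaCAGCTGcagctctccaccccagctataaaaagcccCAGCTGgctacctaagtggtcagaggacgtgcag
Cox7a1: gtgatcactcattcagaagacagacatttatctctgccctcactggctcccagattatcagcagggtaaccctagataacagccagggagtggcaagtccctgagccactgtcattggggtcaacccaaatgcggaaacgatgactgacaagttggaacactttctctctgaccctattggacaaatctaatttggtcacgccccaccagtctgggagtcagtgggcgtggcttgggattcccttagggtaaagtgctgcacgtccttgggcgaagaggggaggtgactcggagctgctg
Cox7a2: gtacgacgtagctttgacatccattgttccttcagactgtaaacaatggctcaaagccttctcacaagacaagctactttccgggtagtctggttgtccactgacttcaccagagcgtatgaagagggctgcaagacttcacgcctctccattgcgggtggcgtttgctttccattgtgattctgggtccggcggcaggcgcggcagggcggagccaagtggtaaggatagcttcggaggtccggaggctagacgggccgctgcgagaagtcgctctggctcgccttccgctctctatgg
Cox8a: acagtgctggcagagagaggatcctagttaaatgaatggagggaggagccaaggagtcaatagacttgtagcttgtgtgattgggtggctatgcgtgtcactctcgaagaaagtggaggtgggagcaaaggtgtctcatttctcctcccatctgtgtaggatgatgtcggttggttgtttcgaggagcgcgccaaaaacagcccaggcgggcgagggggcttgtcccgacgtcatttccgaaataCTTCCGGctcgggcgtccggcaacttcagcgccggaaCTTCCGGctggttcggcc
Cox6a1: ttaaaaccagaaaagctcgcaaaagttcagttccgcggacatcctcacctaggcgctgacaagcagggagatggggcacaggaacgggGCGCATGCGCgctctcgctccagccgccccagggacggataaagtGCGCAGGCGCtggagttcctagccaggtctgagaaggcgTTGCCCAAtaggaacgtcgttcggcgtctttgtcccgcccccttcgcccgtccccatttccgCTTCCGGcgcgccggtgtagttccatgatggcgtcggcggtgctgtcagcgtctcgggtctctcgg
The Cox8b window held the E-box motif at -19 and at 16, counted from the annotated start as 0. The Cox8a window held the ETS motif at -5 and 32. The Cox6a1 window held the NRF1 motif at -162 and -117, the C/EBP motif at -78 and the ETS motif at -16. The Cox7a1 and Cox7a2 windows matched none of the 7 motifs. A match is a description of letters and not a site of binding.

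Of the 80 genes, 67 matched at least 1 RefSeq promoter window, 73 windows in all. The NRF1 motif was in 18 of the 73 (24.7%), against 6.38% of all 21263 windows of protein-coding genes. The ETS motif was in 16 (21.9%, against 11.6%), the YY1 motif in 9 (12.3%, against 1.83%) and the estrogen-related receptor motif in 8 (10.96%, against 4.08%). The C/EBP motif was in 9 windows (12.3%), near the 10.2% of all windows. The E-box was in 6 (8.22%, against 15.6%) and the MEF2 motif in 1 (1.37%, against 3.47%).

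Complex V, ATP synthase, took the largest share of fragments of the 5 complexes, 0.385% and 0.406% in C/EBPβ-overexpressing cells, against 0.471% and 0.487% in empty-vector cells. Atp5b, the catalytic beta subunit of the F1 head, had the highest FPKM of all 80 genes. It stood at 337 and 382 FPKM in C/EBPβ-overexpressing cells, against 488 and 481 FPKM in empty-vector cells. Both C/EBPβ libraries were below, and its log2 fold change was -0.43 (SE 0.13, adjusted p = 0.0249). That call was lost without empty-vector replicate 1 (adjusted p = 0.121), without empty-vector replicate 2 (0.12) and without C/EBPβ replicate 1 (0.0606). Atp5a1, the alpha subunit that alternates with it in the head and the runner-up in level within the complex, had a log2 fold change of -0.23 (adjusted p = 0.118). The head subunit Atp5d, part of the central stalk, fell by 0.44 (adjusted p = 0.0053), whereas Atp5e of the same stalk had -0.01 (adjusted p = 0.968). Atp5o, the connector between head and peripheral stalk, fell by 0.45 (adjusted p = 0.00646). Without empty-vector replicate 2 its call was lost and its log2 fold change was -0.34. Of its windows 14.05% occur in other genes, and 12.7% of its exon bases overlap another gene on the same strand. The main gene sharing its windows is a separate entry with the same symbol, Atp5o, whose counts are not given here. Atp5l, the g subunit of the membrane part, had a log2 fold change of 0.0036.

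The proton-driven c-ring is built from 3 genes, Atp5g1, Atp5g2 and Atp5g3, that encode the same mature protein. Atp5g3 was by far the most abundant, with 149 and 169 FPKM in C/EBPβ-overexpressing cells, against 202 and 223 FPKM in empty-vector cells. It fell by 0.42 on the log2 scale (SE 0.11, adjusted p = 0.0164), and Atp5g1 fell by 0.32 (adjusted p = 0.0234). Without empty-vector replicate 2 the adjusted p was 0.122 for Atp5g3 and 0.139 for Atp5g1, and without C/EBPβ replicate 1 it was 0.118 for Atp5g1. Atp5g2 had -0.08 (adjusted p = 0.467), but it shares 38.35% of its windows with other genes and Atp5g1 shares 10.2%. Atp5g3 made up 78.8% and 81.8% of the summed FPKM of the 3 genes in C/EBPβ-overexpressing cells, against 82.7% and 84.1% in empty-vector cells.

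The single gene called higher was Atp5sl, at 4.45 and 3.90 FPKM in C/EBPβ-overexpressing cells, against 3.48 and 2.75 FPKM in empty-vector cells. The groups did not overlap, but the log2 fold change of 0.43 (SE 0.15, adjusted p = 0.0469) did not pass with DESeq2 (adjusted p = 0.0688), without empty-vector replicate 2 (adjusted p = 0.279) or without C/EBPβ replicate 1 (adjusted p = 0.152). Atp5sl, now named Dmac2, is an assembly factor of complex I and not a subunit of ATP synthase. Atp5s, now named Dmac2l, likewise is not a structural subunit, and had a log2 fold change of 0.24 (adjusted p = 0.222). Without these genes and Ndufa4l2, 29 of 77 fell (37.7%, against 20.9% of all genes). None rose by edgeR (22.3% of all genes did), also at an unadjusted p below 0.05, or by DESeq2.

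Complexes I, III, IV and V also hold 13 subunits encoded in mitochondrial DNA. By edgeR 0 of 13 passed, where 20.9% of all genes were called lower and 22.3% higher. The median log2 fold change of the 13 was -0.09. Of them, 1 had an unadjusted p below 0.05 by edgeR, and DESeq2 and limma-voom each called 1 lower. That gene was mt-Nd1, a membrane-arm core subunit of complex I, at 2552 and 2265 CPM in C/EBPβ-overexpressing cells, against 3392 and 2880 CPM in empty-vector cells (log2 fold change -0.38, edgeR adjusted p = 0.0638). Its adjusted p was 0.00656 with DESeq2 and 0.0475 with limma-voom. By edgeR it was 0.00959 without a count filter. With the other scalings, the filter at a mean of 1 CPM and the replicate block it ran from 0.0531 to 0.0933. The complex III and IV cores mt-Cytb and mt-Co1 had log2 fold changes of -0.11 and -0.02; mt-Co1 shares 51.1% of its windows with other annotated genes. The values for mt-Co2, mt-Co3, mt-Atp6, mt-Nd3 and mt-Nd4l rest on few fragments, and at least 97.99% of their windows occur in other annotated genes. Those of mt-Atp8 also rest on few fragments, with means of 0.365 CPM in C/EBPβ-overexpressing cells and 0.424 CPM in empty-vector cells. Of the mt-Nd4 windows, 62.2% occur in other annotated genes. Whether the nuclear and the mitochondrial genes differ was not tested.

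Among 5 nuclear genes of the chain that the naming rule leaves out, 3 fell (60%, against 20.9% of all genes). Cycs, cytochrome c itself, fell by 0.44, Cyc1, the cytochrome c1 of complex III, by 0.29, and Ndufab1, the acyl carrier of complex I, by 0.25 on the log2 scale. Cycs shares 25.9% of its windows with other genes. None of these 3 calls held without empty-vector replicate 2. Those of Cyc1 and Ndufab1 were also lost without empty-vector replicate 1 and without C/EBPβ replicate 1. Ndufab1 was not called by DESeq2 (adjusted p = 0.0825) or by edgeR with library sizes alone (adjusted p = 0.0905). Of 47 assembly factors tested, 9 fell (19.1%, against 20.9% of all genes) and 2 rose, with a median of -0.10. Sco1, which delivers copper to complex IV, had a log2 fold change of -0.64 (adjusted p = 0.00211), and Uqcc1, needed for complex III assembly, had -0.71 (adjusted p = 0.00494). Surf1, a complex IV assembly factor mutated in Leigh syndrome, rose by 0.46 (adjusted p = 0.00531).

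Regulators of respiratory genes were mixed: 4 of 14 tested fell (28.6%, against 20.9% of all genes) and 1 rose (22.3% of all genes did). Ppargc1a, the coactivator PGC-1α that drives mitochondrial gene expression in muscle, was at 0.747 and 0.793 CPM in C/EBPβ-overexpressing cells, against 2.42 and 2.39 CPM in empty-vector cells. Levels were low throughout, but the groups lay far apart (log2 fold change -1.65, SE 0.23, adjusted p = 0.000908). Its relative Ppargc1b fell by 0.55 (adjusted p = 0.00905), the mitochondrial RNA polymerase Polrmt by 0.29 (adjusted p = 0.0123) and Yy1 by 0.23 (adjusted p = 0.0436). These 3 calls were lost without empty-vector replicate 2 (adjusted p = 0.0634, 0.0558 and 0.228), and those of Polrmt and Yy1 also without empty-vector replicate 1 (0.0583 and 0.0595) and without C/EBPβ replicate 1 (0.0539 and 0.214). Yy1 was not called by DESeq2 (0.0767) or with library sizes alone (0.0948). Ppard, a nuclear receptor for fatty acids, rose by 0.47 (adjusted p = 0.0026). The factors Nrf1, Gabpa and Esrra, which bind motifs searched above, had log2 fold changes of -0.09, 0.01 and -0.18. Gabpb1, the partner of Gabpa that carries the activation domain, had -0.13, and Tfam, which packages and transcribes mitochondrial DNA, had -0.13, with adjusted p-values between 0.108 and 0.908 (edgeR).

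Other mitochondrial pathways served as a setting for these values. In the TCA cycle 5 of 13 genes fell (38.5%) and 1 rose, with a median of -0.25. Idh3a, a subunit of isocitrate dehydrogenase, fell by 0.58 and citrate synthase (Cs) fell by 0.52. Suclg2, of the GTP-forming succinyl-CoA ligase, rose by 0.50 and shares 15.96% of its windows with other genes. Of 77 mitochondrial ribosomal protein genes, 19 fell (24.7%) and 1 rose, with a median of -0.17; Mrpl16 had -0.52, Mrpl38 had -0.44 and the exception, Mrps6, had 0.95. Of 7 nucleotide and phosphate carriers tested 3 fell, with a median of -0.25. The ADP/ATP carrier Slc25a5 fell by 0.47, the porin Vdac3 by 0.25 and the mitochondrial creatine kinase Ckmt2, under 1 CPM in all libraries, by 1.53. Slc25a5 shares 33.8% of its windows with other genes and Vdac3 shares 12.8%. The calls of Vdac3 and Ckmt2 were lost with DESeq2 (adjusted p = 0.0593 and 0.163) and without any 1 library except C/EBPβ replicate 2. In fatty acid oxidation 2 of 14 fell and 3 rose, with a median of 0.00: Cpt1a, which admits fatty acids to the mitochondrion, rose by 0.74 and the medium-chain dehydrogenase Acadm rose by 0.51, while the long-chain dehydrogenase Acadl fell by 0.75. Among all genes tested, 20.9% were lower and 22.3% were higher. These lists are set side by side as counts and medians, and the differences between them were not tested.

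**Figure D4:**
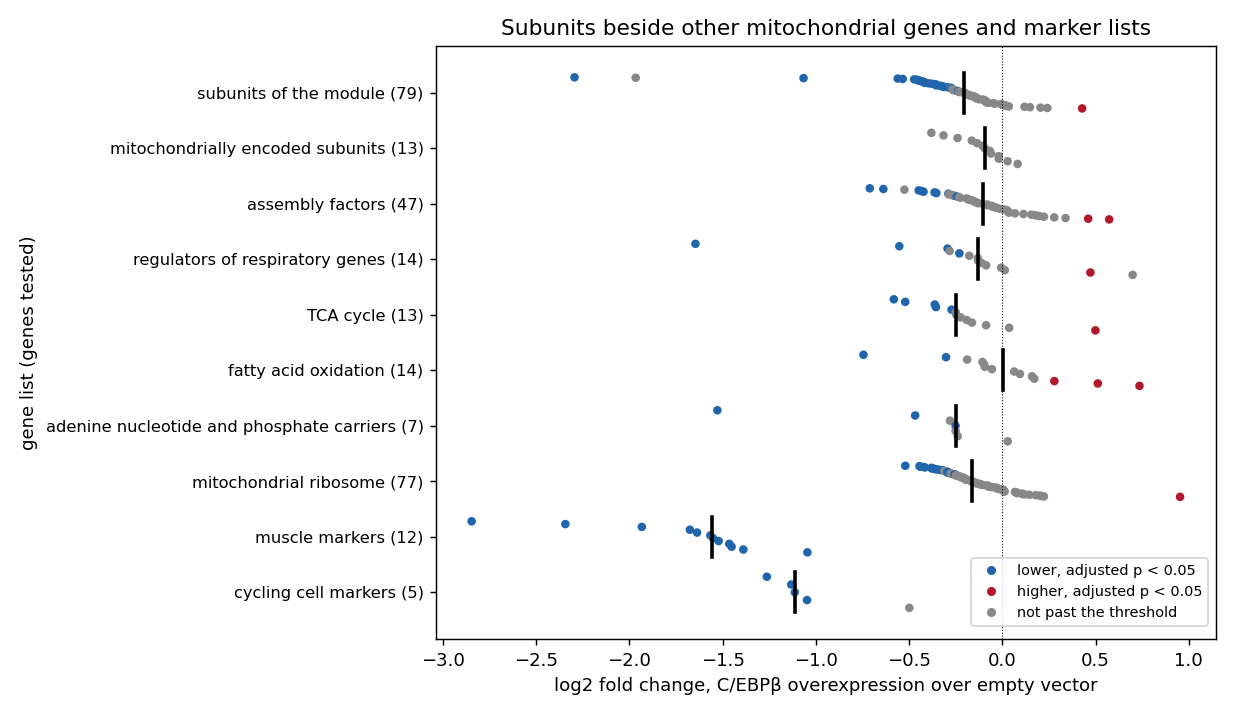
Log2 fold change of C/EBPβ overexpression over empty vector (x axis) for the subunit genes and 9 other gene lists (y axis, genes tested in brackets); points are genes coloured by call and vertical bars are medians. The subunit median of -0.20 lies beside those of the TCA cycle and the mitochondrial ribosome, while the muscle marker median is -1.56.

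In the authors' deposited table, whose adjusted p-values call 20.9% of genes lower and 16.1% higher, 38 of the 80 genes were lower and 1, Atp5sl, was higher. All 29 genes called lower here were also called lower there, and 74 of 79 had the same sign. The authors' deposited table gives Cox6a2 a log2 fold change of -2.02 with an adjusted p of 2.14e-16. It is not independent of the values above.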

How the data were processed

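RNA was measured in 4 libraries, grouped by their titles. The authors deposited raw fragment counts and an exon length per gene. The submitters' processing notes list HISAT2 2.0.4 and featureCounts 1.4.6 with build GRCm38, while the file headers name featureCounts 1.5.1, GENCODE M12, paired fragments and the reverse strand. Per the file headers, the authors' deposited table gives each gene's mean signal, log2 fold change, standard error, test score, p-value and adjusted p; DESeq2 is in the submitters' processing notes without a version, and the mean signal may include libraries not analysed here.

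Counts were tested with edgeR 4.0.16 (R 4.3.3; TMM normalisation, filterByExpr with a minimum count of 10, robust quasi-likelihood fit, 2-sided) over 15886 genes, adjusted by Benjamini-Hochberg, with calls at 0.05. Alternatives were DESeq2 1.42.0, limma-voom (limma 3.58.1), other scalings and filters, each library left out and a replicate block. FPKM used the deposited exon length, which covers all annotated transcripts and so understates genes with long minor transcripts such as Atp5l. On simulated counts of 15588 genes, 55.2% of 1.5-fold and 82.7% of 2-fold changes were recovered, and 5.63% of calls were false. The simulation changed only a small part of its genes, whereas 20.9% of genes were called lower and 22.3% higher in the data. Its rates therefore need not hold for these data. Tested subunit genes had 45 to 102988 fragments per library, so counting error is small for all but Cox7a1, Cox8b and the least abundant. Fragments mapping to several genes are left out by the counter as run, so shared 50-base windows with other GENCODE M21 transcripts were counted; 13 subunit genes share over 10%.

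Promoters are from RefSeq. Equal replicate numbers in the titles are not said to mark a shared culture, so libraries were not paired. The 2 libraries of a group differed beyond sampling noise (chi-square per degree of freedom 28.5 in C/EBPβ-overexpressing and 20.01 in empty-vector cells), so none was a repeat deposit. Named genes are the isoform pairs, complex II, the c-ring genes, the 3 highest and lowest log2 fold changes and the 2 highest levels per complex, all regulators and mitochondrially encoded genes, and the 3 smallest p per other list; further subunits appear as examples, and 1 gene is counted but not reported here. The genes and lists were chosen with earlier results of these data known.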

Additional observations from a re-analysis of the deposited data

How the results depend on the processing

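The log2 fold change was negative in every alternative for 60 of the 80 subunit genes, and the median over the genes tested ran from -0.27 to -0.13. Under other tools, scalings and filters the share of all genes called lower moved as well, from 14% to 22.7%. It was 14% without a count filter, where 35 subunit genes were lower, and 18% with library sizes alone, where 26 were. That share also changed when a library was left out. Without empty-vector replicate 2 the share of subunit genes called lower did not stand above it. The median log2 fold change was then -0.13 for subunit genes and 0.02 for all genes. In each other fit with 1 library left out, the share of subunit genes called lower stood above that of all genes. The counts of subunit genes below therefore do not show alone how steady the difference from genes in general was. The number called lower ran from 26 to 35 under other tools, scalings and filters and from 8 (without empty-vector replicate 2) to 37 (without C/EBPβ replicate 2) with 1 library left out; it was 24 among genes sharing at most 10% of windows. Of the 29, 8 (among them Ndufs1, Ndufs4, Ndufs8, Ndufv1, Uqcrq, Cox8b and Atp5d) were called lower in all 10 alternatives other than the block. The number called higher was 0 with DESeq2 and 0 to 1 with 1 library left out; without empty-vector replicate 2 the 1 gene was Ndufv3. With all 4 libraries and without Atp5s, Atp5sl and Ndufa4l2 it was 0. With the replicate number as a block 39 genes were lower and 1 was higher (23.3% and 25.1% of all genes), all 29 remained, and 10 were added (Ndufs3, Ndufc1, Ndufa5, Ndufb8, Uqcrc2, Uqcrb, Uqcr11, Cox4i1, Cox6a2 and Cox7a2); deviations of same-numbered libraries correlated at 0.186, and the labels do not say that the numbers mark a shared culture.

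Signs turned for 18 named genes, none of them called in a fit where its sign turned; the cause was not tested. Atp5l had -0.0058 with DESeq2, -0.0059 with median-ratio size factors and -0.0058 without a count filter. With limma-voom mt-Atp6 had 0.037 and mt-Atp8 0.060. With library sizes alone Cox6a1 had 0.049, mt-Co1 0.036, mt-Atp6 0.039 and Tfb2m 0.048; there the median of all genes was 0.07 and of the subunits -0.15. With 1 library left out the lowest and highest values were -0.12 and 0.13 for Atp5l, -0.36 and 0.41 for mt-Atp6, -0.81 and 0.89 for mt-Atp8, -0.040 and 0.027 for Cox6a1, -0.13 and 0.092 for mt-Co1, -0.065 and 0.037 for Tfb2m, -0.030 and 0.060 for Cox7a2l, -0.057 and 0.13 for Ndufa1, -0.096 and 0.12 for Ndufa6, -0.15 and 0.031 for mt-Nd4, -0.21 and 0.0070 for mt-Cytb, -0.19 and 0.062 for mt-Co2, -0.031 and 0.056 for Gabpa, -0.19 and 0.0081 for Uqcrh, -0.38 and 0.39 for mt-Co3, -0.28 and 0.031 for Gabpb1, -0.34 and 0.32 for mt-Nd4l and -1.66 and 0.23 for mt-Nd3. A change of 1.5-fold was recovered in 55.2% of simulated cases, in a simulation where far fewer genes changed than were called in the data.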
